A study of Mus musculus with 4 samples.

Results

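The JAK kinases Jak1, Jak2, Jak3 and Tyk2 and the STAT factors Stat3, Stat4, Stat5a, Stat5b and Stat6 were followed in invariant natural killer T (iNKT) cells sorted from mouse thymus. They were taken by symbol from a read table of 46517 genes, in which each of the 9 symbols named 1 row. RNA-seq had been done on 4 libraries of C57BL/6J mice, 2 labelled Control and 2 labelled Prmt5 KO, and the comparison asks what loss of the arginine methyltransferase Prmt5 does to the transcripts of these cells. The Prmt5 KO libraries carry the genotype Prmt5 flox/D with Cd4-Cre, a recombinase driven in developing T cells by the Cd4 promoter, so the deletion is not limited to iNKT cells. The label of both Control libraries names a pair of genotypes, Prmt5 flox/D and Prmt5 flox/+ Cd4-Cre, without saying which library had which. The first carries 1 deleted allele, and the second carries the Cre, which deletes its floxed allele. Control cells of either genotype can therefore have 1 deleted allele, with or without the Cre. All 4 samples were gated as stage 1, a population lacking CD24, NK1.1 and T-bet. No age is given. Whether each library is a separate animal is not stated either, so the p-values describe variation among libraries, which can be technical.

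JAKs are tyrosine kinases bound to the inner tails of cytokine receptors. When a cytokine draws the receptor chains together, the JAKs phosphorylate each other and the receptor, STAT proteins dock there and are phosphorylated in turn, and STAT dimers enter the nucleus and bind DNA. Jak3 binds the common gamma chain, encoded by Il2rg, and works beside Jak1 in receptors for IL-2, IL-4, IL-7, IL-9, IL-15 and IL-21; thymic iNKT cells are known to depend on IL-15, which signals through Stat5.

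The members were compared as sequences first, because short reads can be assigned to a gene only where it differs from its relatives. The kinase domain of each JAK holds a pair of adjacent tyrosines in its activation loop, phosphorylated when the enzyme is switched on. Their codons, in capitals, are shown with the surrounding coding bases from the GENCODE M21 transcripts (mouse build GRCm38), read 5′ to 3′ along the transcript, because this is the site that defines an active JAK.
Jak1: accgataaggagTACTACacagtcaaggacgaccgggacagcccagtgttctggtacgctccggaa
Jak2: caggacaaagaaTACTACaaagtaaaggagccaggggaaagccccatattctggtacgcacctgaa
Jak3: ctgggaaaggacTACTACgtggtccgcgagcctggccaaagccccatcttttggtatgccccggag
Tyk2: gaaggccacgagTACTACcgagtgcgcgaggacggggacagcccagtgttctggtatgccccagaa
Over these 66 bases the 4 genes were 59.1% to 72.7% identical, the lowest between Jak1 and Jak3 and the highest between Jak1 and Tyk2. No run of 30 coding bases was shared between any pair of JAKs. Of 36 pairs among the 9 members, 1 shared such runs: Stat5a and Stat5b, the neighbouring genes of chromosome 11 whose products act at the same receptors.

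Stat5a and Stat5b were 92.3% identical over 1959 aligned coding positions, with 150 differences. Their longest identical run was 324 bases long, at coding positions 571 to 894 counted from the start codon, and no read inside it can be assigned to either gene by its sequence. The start of that run is shown for both genes, with the identical run in capitals.
Stat5a, positions 541 to 630: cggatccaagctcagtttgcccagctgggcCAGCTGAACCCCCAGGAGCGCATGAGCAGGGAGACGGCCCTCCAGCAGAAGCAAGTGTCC
Stat5b, positions 541 to 630: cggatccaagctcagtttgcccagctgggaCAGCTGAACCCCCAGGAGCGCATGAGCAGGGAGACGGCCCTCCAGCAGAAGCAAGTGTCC
The 90-base stretch that differs most within these aligned positions is shown next, with the 22 differing bases in capitals. Bases outside the aligned positions were not searched. A read from this stretch identifies its gene.
Stat5a, positions 103 to 192: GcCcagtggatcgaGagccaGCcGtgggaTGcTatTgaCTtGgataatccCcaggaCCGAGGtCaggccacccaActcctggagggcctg
Stat5b, positions 103 to 192: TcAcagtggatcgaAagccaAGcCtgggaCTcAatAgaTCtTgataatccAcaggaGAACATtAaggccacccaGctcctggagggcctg
In the deposited counts the share of exon reads placed uniquely was 95.9% to 97.3% for Stat5a and 94.7% to 96.1% for Stat5b, so few of their reads were shared.

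In the deposited table (build mm10) Jak1 spans bases 101152367 to 101265282 of chromosome 4 on the minus strand, Jak2 bases 29251828 to 29313080 of chromosome 19 on the plus strand, and Tyk2 bases 21104069 to 21127346 of chromosome 9 on the minus strand. Stat5b (100780731 to 100850724, minus strand), Stat5a (100859351 to 100885169, plus strand) and Stat3 (100885098 to 100939540, minus strand) lie side by side on chromosome 11, and the ends of Stat5a and Stat3 overlap by 72 bases. Stat4 spans bases 51987148 to 52107189 of chromosome 1 and Stat6 bases 127642986 to 127660957 of chromosome 10, both on the plus strand.

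Exon reads came to 5571860 and 4600799 in the Control libraries and 13240293 and 5355378 in the Prmt5 KO libraries, so Prmt5 KO 1 was the deepest. Levels are exon reads per 1000000 exon reads (CPM), with library sizes adjusted by the trimmed mean of M values (TMM). Prmt5 itself was at 98.3 and 99.8 CPM in Control, against 86.7 and 119 CPM in Prmt5 KO (log2 fold change 0.05 ± 0.32 SE, edgeR's quasi-likelihood test, Benjamini-Hochberg adjusted p = 0.992). Of unique intron reads Prmt5 had 0 and 1 in the Control libraries, against 11 and 35 in Prmt5 KO. The labels do not name the floxed exon, and whole-gene exon reads do not check a deletion of part of the gene, so the libraries are called Prmt5 KO here as labelled. Zbtb16, which encodes the iNKT-defining factor PLZF, was at 189 and 145 CPM in Control, and at 350 and 253 CPM in Prmt5 KO, and Cd3e of the T cell receptor complex at 853 and 787 against 287 and 572 CPM. The T-bet gene Tbx21 was at 107 and 64.6 against 13.4 and 5.71 CPM although the gate was set negative for T-bet in both groups. The CD24 gene Cd24a was at 0 and 0 against 5.56 and 2.56 CPM, and the NK1.1 gene Klrb1c at 36.8 and 13.1 against 2.91 and 13.8 CPM. The summed level of 7 iNKT markers, most of it Trac and Cd3e, was 2486 and 2350 CPM in Control, against 1303 and 2126 CPM in Prmt5 KO. The sum hides genes that went both ways: groups did not overlap for 2 of the 7 with Prmt5 KO higher and 3 lower, against 20.5% and 19% of all genes. The B cell list of 4 genes summed to 154 and 118 against 50.1 and 41.1 CPM, nearly all of it Ighm, with Ms4a1 at 0 in every library. The NK cell list of 3 genes summed to 12.9 and 30.5 against 53.8 and 136 CPM. Fcer1g alone gave 12.9, 30.05, 53.8 and 136 CPM of that, while Ncr1 was at 0 in every library and Klra8 at 0 in all but Control 2, with 0.469 CPM. The myeloid list of 4 genes, with Lyz2 at 0 in every library, summed to 95.1 and 161.5 against 62.0 and 155 CPM, most of it Cst3. Cst3 overlapped between the groups, while Itgam of that list was higher in Prmt5 KO, at 1.77 and 0 against 12.4 and 7.09 CPM. The list of 5 genes for double-positive thymocytes summed to 1.42 and 4.46 against 9.35 and 4.33 CPM. Within it Cd8a was higher, at 0 and 1.88 against 7.93 and 4.13 CPM, and Dntt lower, at 1.42 and 2.35 against 1.29 and 0.197 CPM. The mast cell list of 2 genes summed to 2.12 and 0 against 13.6 and 23.6 CPM, low but higher in both Prmt5 KO libraries. The part of these marker differences in the results that follow was not tested.

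Setting aside Stat4, which had 30 exon reads or fewer in every library, the largest difference in exon reads was in Jak3, lower in both Prmt5 KO libraries, followed by Tyk2, lower, and Stat5b, higher. In edgeR's quasi-likelihood test over 10775 genes no member passed the adjusted threshold of 0.05, where 0.00928% of genes (1 gene) did. At an unadjusted p under 0.05 the count was 3 of 9 members, against 8.58% of all genes tested. DESeq2, edgeR's exact test and limma-voom each called Jak3 and no other member, where over all genes they called 168, 204 and 13. The 2 groups did not overlap for 5 of 9 members, against 39.5% of all genes (20.5% higher and 19% lower): Stat3, Stat5a and Stat5b were higher in Prmt5 KO, and Jak3 and Tyk2 lower. The median log2 fold change of the 9 members was 0.04 and that of all genes was -0.0003.

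**Figure D1:**
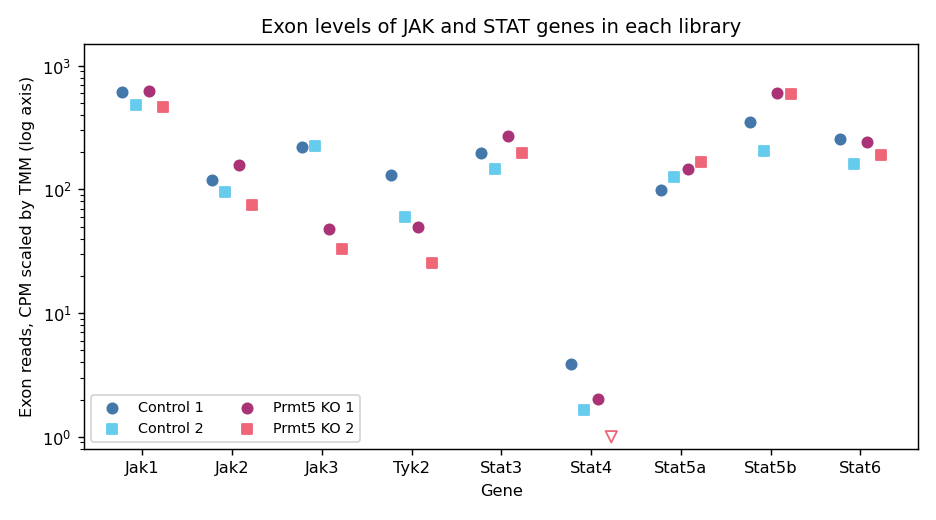
Exon level of each JAK and STAT gene in each library, in CPM on a log axis; each point is 1 library, and the open triangle marks the Stat4 value of Prmt5 KO 2, which had 0 reads. Jak3 and Tyk2 lie lower in both Prmt5 KO libraries than in both Control libraries, and Stat3, Stat5a and Stat5b lie higher.

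Jak3, the JAK that pairs with the gamma chain, had levels of 218 and 225 CPM in Control 1 and 2, against 47.4 and 32.9 CPM in Prmt5 KO 1 and 2. These values rest on 1233, 957, 700 and 167 exon reads. Both Prmt5 KO libraries lay far below both Control libraries, which differed little from each other. The fitted level was 5.49-fold lower in Prmt5 KO (log2 fold change -2.46 ± 0.34 SE), and the edgeR quasi-likelihood adjusted p was 0.0561, just outside the threshold. Its log2 fold change ran from -2.74 to -2.22 over 16 other settings, and its adjusted p from 6.39e-08 to 0.388, under 0.05 in 7 of them. With any 1 library left out the adjusted p was 0.0899 to 0.388. In bulk libraries, fewer cells that express a gene and less RNA per cell cannot be told apart.

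Jak1, the partner of Jak3 at gamma chain receptors and also a kinase of interferon and IL-6 family receptors, was at 612 and 483 CPM in Control, and at 622 and 466 CPM in Prmt5 KO. The groups overlapped almost fully (log2 fold change -0.01 ± 0.35 SE, edgeR adjusted p = 0.998). Measured within each library, where depth cancels, Jak3 reads came to 35.7% and 46.5% of Jak1 reads in Control and to 7.62% and 7.05% in Prmt5 KO. Per kilobase of exon, Jak3 made up 23.0% and 29.8% of the summed JAK level in Control and 6.46% and 6.74% in Prmt5 KO. The ratio to Jak1 therefore showed the same separation as the scaled level, without the TMM factors.

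Jak2, the kinase of the erythropoietin, GM-CSF and interferon gamma receptors, was at 119 and 95.3 CPM in Control, against 158 and 75.0 CPM in Prmt5 KO. The Prmt5 KO libraries lay on either side of the Control libraries (log2 fold change 0.13 ± 0.40 SE, edgeR adjusted p = 0.977).

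Tyk2, which works at receptors for type I interferon, IL-10, IL-12 and IL-23, was at 131 and 59.9 CPM in Control, and at 49.7 and 25.6 CPM in Prmt5 KO. The lower Control library lay close to the higher Prmt5 KO library (log2 fold change -1.34 ± 0.48 SE, edgeR adjusted p = 0.457). Its log2 fold change moved from -1.90 to -0.63 when libraries were left out in turn. Tyk2 values are uncertain for a second reason: the gene lies inside 1700084C06Rik, an antisense gene that overlaps 23278 of its bases, and the counting is not stated to use strand. Only 53.0% to 70.0% of its exon reads were unique, its unique exon reads were all exon-exon reads in the 4 libraries, and it had 0 unique intron reads.

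**Figure D2:**
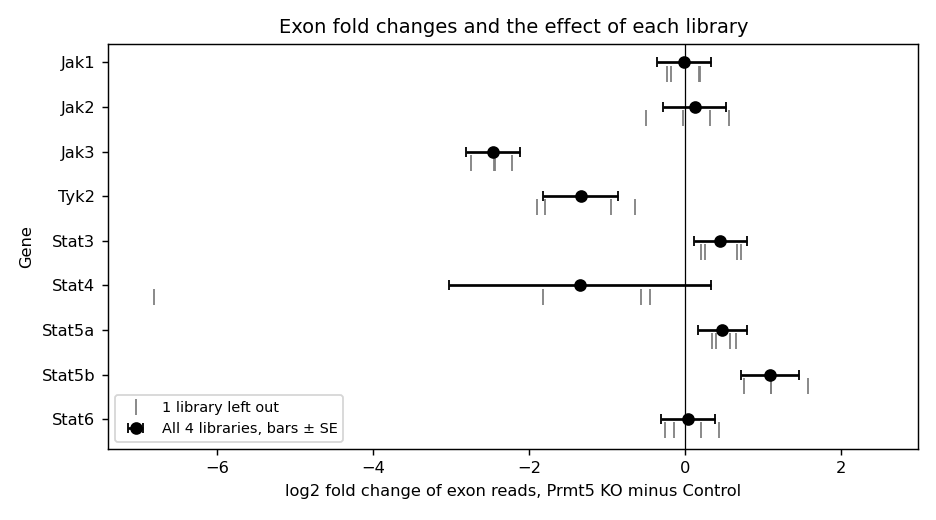
Log2 fold change of exon reads, Prmt5 KO minus Control, for each member. Circles are the fit of all 4 libraries with bars of ± 1 SE, and grey ticks are the fits with 1 library left out; the Jak3 ticks run from -2.74 to -2.22, while the ticks of Jak1, Jak2 and Stat6 lie on both sides of 0.

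Stat5b, activated by IL-2, IL-7 and IL-15 and closely similar in sequence to Stat5a, was at 352 and 204 CPM in Control, against 599 and 594 CPM in Prmt5 KO. Both Prmt5 KO libraries lay above both Control libraries, and the Control libraries differed from each other more than the Prmt5 KO libraries did. The fitted level was 2.14-fold higher (log2 fold change 1.10 ± 0.37 SE, edgeR adjusted p = 0.423), and 0.76 to 1.58 on the log2 scale with 1 library left out. Stat5a was at 98.8 and 125 CPM in Control, and at 147.5 and 165 CPM in Prmt5 KO. Its groups did not overlap, but the difference was small (log2 fold change 0.48 ± 0.31 SE, edgeR adjusted p = 0.759).

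Of the reads placed uniquely on either Stat5 gene, Stat5b took 77.9% in Control 1 (95% Wilson interval 76.2 to 79.5) and 61.9% in Control 2 (59.2 to 64.4). It took 80.0% in Prmt5 KO 1 (79.3 to 80.8) and 78.0% in Prmt5 KO 2 (76.6 to 79.3). Control 2 stood below the other 3 libraries, among which the share differed little; these intervals cover counting error only. The ratio of Stat5b to Jak3 in CPM was 1.61 and 0.908 in Control and 12.6 and 18.1 in Prmt5 KO.

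Stat3, activated by IL-6, IL-10, IL-21 and IL-23, was at 195 and 145 CPM in Control, against 271 and 196 CPM in Prmt5 KO. Control 1 and Prmt5 KO 2 were nearly equal, so the groups were separated by a very small gap (log2 fold change 0.46 ± 0.34 SE, edgeR adjusted p = 0.792). Stat6, activated by IL-4 and IL-13, was at 256 and 161.5 CPM in Control, and at 241 and 189 CPM in Prmt5 KO. The Prmt5 KO values lay between the Control values (log2 fold change 0.04 ± 0.35 SE, edgeR adjusted p = 0.995).

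Stat4, activated by IL-12, drew 22 and 7 exon reads in the Control libraries and 30 and 0 in the Prmt5 KO libraries, or 3.90, 1.64, 2.03 and 0 CPM. A count of 0 in Prmt5 KO 2 allows up to 0.591 CPM (3 counts), and no difference was detectable at this depth (log2 fold change -1.35 ± 1.68 SE, edgeR adjusted p = 0.917). Without Prmt5 KO 1, the other Prmt5 KO library being at 0 reads, the fitted value was -6.81, which depends on the prior count. Stat4 also overlaps Gm28177 on its own strand, and 28.6% to 72.7% of its exon reads were unique where it had any.

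Levels of different genes were compared per kilobase of exon, in CPM. In Control the order was Jak1 at 75.8 ± 12.7 (SD, n = 2), Stat5b at 50.2 ± 18.9, Stat6 at 47.4 ± 15.2, Jak3 at 41.4 ± 0.835, Jak2 at 21.3 ± 3.30, Tyk2 at 20.7 ± 10.95, Stat3 at 17.9 ± 3.73, Stat5a at 15.7 ± 2.61 and Stat4 at 0.715 ± 0.411. Neighbours in this order overlapped between libraries except Jak1 above Stat5b, Jak3 above Jak2, and Stat5a above Stat4. In Prmt5 KO, Stat5b came first at 107.7 ± 0.675, then Jak1 at 75.3 ± 15.3, Stat6 at 48.8 ± 8.35, Stat3 at 24.5 ± 5.59, Jak2 at 23.2 ± 11.7, Stat5a at 21.9 ± 1.77, Tyk2 at 8.16 ± 3.70, Jak3 at 7.50 ± 1.92 and Stat4 at 0.263 ± 0.371 per kilobase. There the overlapping neighbours were Stat3 with Jak2, Jak2 with Stat5a, and Tyk2 with Jak3. Jak3 thus stood in place 4 in Control and in place 8 in Prmt5 KO, while Stat6 was in place 3 in both.

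Reads in introns come largely from RNA that is not yet spliced, and Prmt5 methylates Sm proteins of the spliceosome, so intron reads were compared with exon reads of the same gene. Unique reads were used, for the 7400 genes that had 20 or more of them in exons in each library and 10 or more in introns over all libraries. Over genes with an annotated exon length, introns held 3.28% and 4.44% of unique gene reads in Control, against 7.47% and 5.62% in Prmt5 KO. The median gene had a log2 fold change of intron against exon reads of 1.09, and the members are read against that shift.

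The Jak3 intron share was 2.21% and 1.91% in Control (27 and 18 intron reads) and 11.99% and 12.9% in Prmt5 KO (92 and 24 intron reads). The 95% Wilson intervals were 1.52 to 3.19 and 1.21 to 3.0 in Control and 9.88 to 14.5 and 8.83 to 18.5 in Prmt5 KO, so both Prmt5 KO libraries stood well above both Control libraries. The log2 fold change of intron against exon reads was 2.76 ± 1.17 SE, or 1.67 above the median gene (edgeR adjusted p = 0.717). The share can move through its exon part alone. Intron CPM were scaled to library sizes from unique exon reads, whereas exon CPM used total exon reads. The intron and exon CPM values are therefore not on the same scale. Jak3 intron reads were at 5.55 and 4.95 CPM in Control against 7.21 and 5.51 CPM in Prmt5 KO, and the groups overlapped. The log2 fold change of these intron reads was 0.28 ± 1.08 SE (edgeR adjusted p = 0.944), 0.78 below that of the median gene at 1.06. It became -0.71 when the intron columns were given their own TMM factors. As fitted, the exon reads of Jak3 differed between the groups more than its intron reads did, but the few intron reads leave a wide error. The direct test of intron against exon reads did not pass the adjusted threshold.

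The other members had intron shares as follows. Jak2 was at 2.47% and 3.79% in Control and at 6.78% and 12.2% in Prmt5 KO, both higher. Its intron reads were at 3.49 and 4.40 CPM against 13.3 and 12.2 CPM (log2 fold change 1.69 ± 0.97 SE, edgeR adjusted p = 0.598), while its exon groups overlapped. That is 0.63 above the median gene, and the value was 0.78 with TMM factors from the intron columns. Jak1 was at 1.93% and 1.58% against 3.50% and 2.95%, and Stat6 at 0.755% and 1.15% against 2.50% and 1.23%, which separates the Stat6 groups by a narrow margin. Stat3, at 2.30% and 6.10% against 2.77% and 5.33%, overlapped, as did Stat5a, at 1.11% and 2.85% against 2.84% and 3.21%. Stat5b was at 1.98% and 6.75% against 3.59% and 3.25%, so Control 2 was the highest library for Stat5b and for Stat3. Relative to the median gene, the log2 fold change of intron against exon reads was above 0 for Jak2 (0.57). It was below 0 for Jak1 (-0.19), Stat6 (-0.13), Stat5a (-0.36), Stat3 (-1.07) and Stat5b (-1.21). Tyk2 and Stat4 had too few reads of these kinds to be tested.

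By edgeR's quasi-likelihood test 0 of the 7 tested members passed an adjusted p of 0.05 for intron against exon reads, as did 0% of the 7400 genes, also with limma-voom. At an unadjusted p under 0.05 the count was 1 of 7, Jak3, against 6.8% of all genes. The intron share was higher in Prmt5 KO without overlap for 4 of 7 members (Jak1, Jak2, Jak3 and Stat6), against 39.2% of all genes, so the separation of these members was shared with many genes. For intron reads alone, 0 of 7 members passed an adjusted p of 0.05, against 0.162% of genes, and 0 of 7 passed unadjusted, against 9.54%. Their groups did not overlap, with Prmt5 KO higher, for 5 of 7 members against 41.3% of genes.

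**Figure D3:**
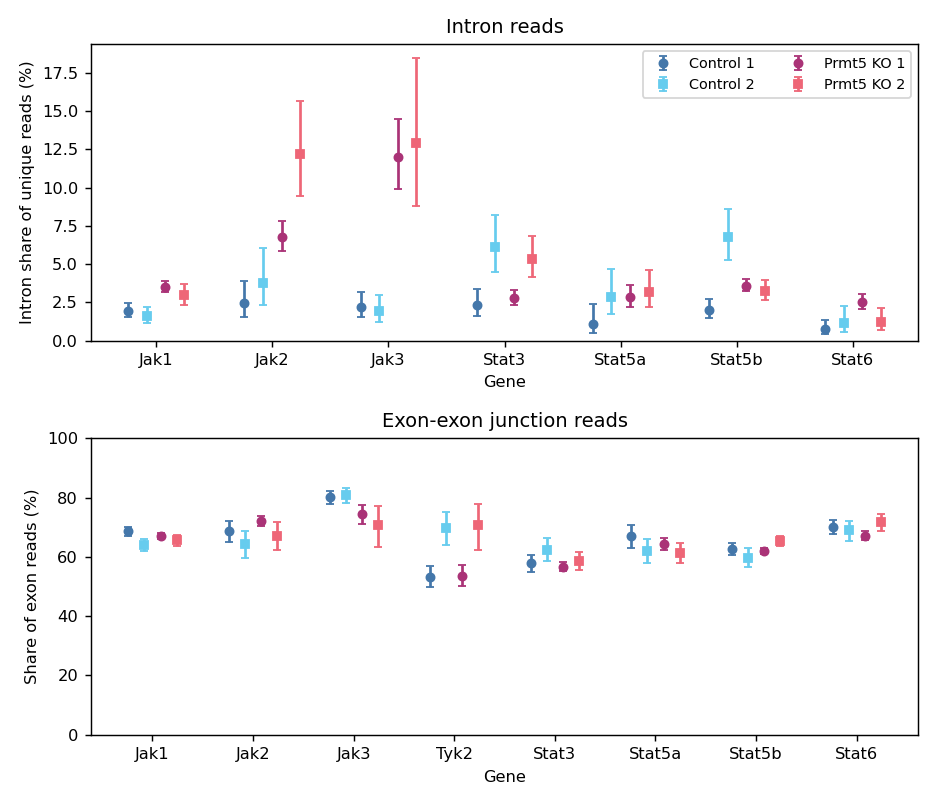
Intron share of unique reads (top) and exon-exon share of exon reads (bottom), in percent, per library for the members with enough reads. Jak3 lies at 11.99% and 12.9% intron reads in Prmt5 KO, above Control, and has the lowest 2 exon-exon values of its 4 libraries there.

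**Figure D4:**
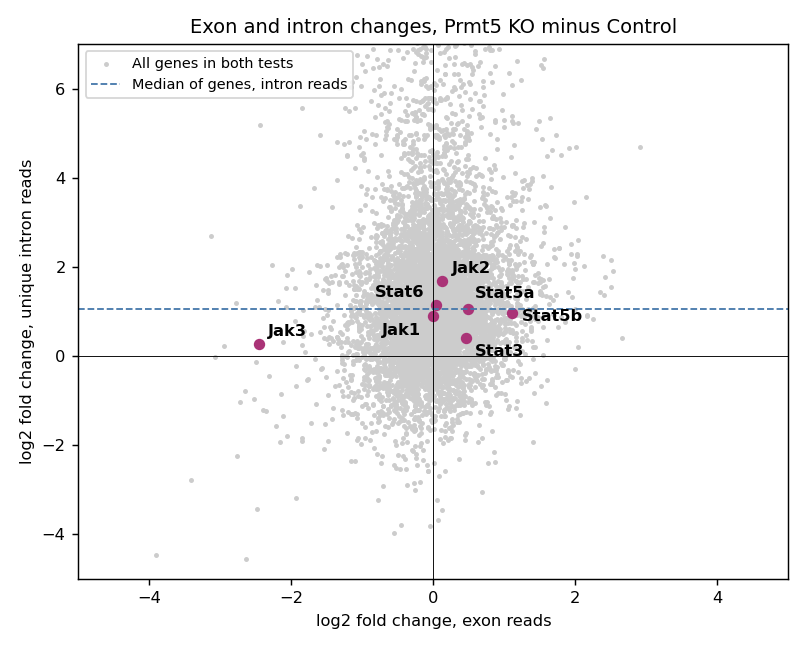
Log2 fold change of intron reads (vertical) against that of exon reads (horizontal), Prmt5 KO minus Control, for the 7400 genes in both tests, of which 64 lie outside the axes; the dashed line is the median intron change of 1.06. Jak3 lies far to the left at -2.46 on the exon axis and close to 0 on the intron axis, and the other 6 tested members lie to its right.

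Exon-exon reads, which cross a splice junction, made up 80.2% and 80.9% of Jak3 exon reads in Control, against 74.3% and 70.7% in Prmt5 KO. Both Prmt5 KO values were lower (log2 fold change of exon-exon against other exon reads -0.62 ± 0.21 SE, edgeR adjusted p = 0.996). Over 6750 genes 0% passed the adjusted threshold, and at an unadjusted p under 0.05 the count was 1 of 8 tested members, Jak3, against 3.23% of genes. Groups that did not overlap, with Prmt5 KO lower, were found for 1 of 8 members and for 18.3% of genes. The share of Jak1, Jak2, Stat3, Stat5a, Stat5b and Stat6 overlapped between the groups. Tyk2 was at 53.4% and 69.8% in Control and 53.7% and 70.8% in Prmt5 KO, so its share followed the library number and not the group. The unique share of its exon reads was nearly the same, at 53.0% and 69.4% in Control and 53.5% and 70.0% in Prmt5 KO. All its unique exon reads were exon-exon reads, so the Tyk2 value follows unique placement and is not read as splicing.

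The Jak3 model bears on how its reads were sorted. Jak3 lies on the plus strand of chromosome 8, bases 71676296 to 71690575 of GRCm38, with the same ends and exon length of 5352 bases in the deposited table and in GENCODE M21. Its main transcript has 25 exons, and of 10261 intron bases 1333 (13.0%) lie in exons of its other annotated transcripts, among them 2 retained-intron transcripts. Introns 5, 6 and 8 are covered wholly, so a read kept from them counts as an exon read that crosses no junction there. Their ends are shown because those reads cannot be seen in the intron column; the capitals mark the first and last pair of intron bases.
Intron 5, start: gacggtcagGTgagggcctc
Intron 5, end: ggcgtgccccccccccacAGttacaaagc
Intron 6, start: gaccaggagGTgctggggct
Intron 6, end: gcctgtcctttcttcctcAGcttttccag
Intron 8, start: acccatcacGTtaggagcta
Intron 8, end: tggctgctgtcttggcctAGgttagactt
The introns lie at bases 71679348 to 71679558, 71679845 to 71680434, and 71680798 to 71680882, and are 211, 590 and 85 bases long. Each starts with GT and ends with AG, the usual splice site letters. Reads over single introns were not analysed here. Jak3 also overlaps Insl3 on the same strand over 1362 bases.

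Genes of the pathway outside the members were grouped by role, and over all genes tested none of these lists had a gene past the adjusted threshold of 0.05 by edgeR's quasi-likelihood test. Stat2, which works in type I interferon signalling, was at 31.0 and 38.0 CPM in Control, against 62.8 and 6.89 CPM in Prmt5 KO, which lay on either side of the Control libraries (log2 fold change 0.03 ± 0.79 SE, edgeR adjusted p = 0.997).

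Of the 9 receptor chains of the common gamma chain family, all tested, 1 was higher and 1 lower at an unadjusted p under 0.05, against 4.62% and 3.95% of all genes, and the median log2 fold change was -0.39. That median changed sign with other settings, to 0.34 at a mean of at least 5 CPM, 0.44 on exon-exon reads, 0.12 without Control 2 and 0.027 without Prmt5 KO 1. Il4ra, the IL-4 receptor chain, was at 4.07 and 11.3 CPM in Control, and at 30.6 and 22.4 CPM in Prmt5 KO (log2 fold change 1.80 ± 0.65 SE, edgeR adjusted p = 0.448). Il2rg, the chain that binds Jak3, was at 1200 and 1742 CPM in Control, against 620 and 848 CPM in Prmt5 KO, both lower (-1.004 ± 0.39 SE, edgeR adjusted p = 0.496). As few as 13.96% of Il2rg exon reads in a library were unique, and on unique exon reads its log2 fold change was -0.40, so its size is uncertain. The Jak3 level was 18.2% and 12.9% of the Il2rg level in CPM in Control and 7.65% and 3.88% in Prmt5 KO. DESeq2, the exact test and limma-voom called no gene of this list.

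Of 20 other receptor chains that bind JAKs, 13 were tested; 0 were higher and 3 lower at an unadjusted p under 0.05, against 4.62% and 3.95% of all genes. Their median log2 fold change was -0.11. It was 0.047 without a filter, 0.049 without Control 1, -0.26 with limma-voom, -0.20 on total gene reads, -0.38 without Control 2 or Prmt5 KO 1 and -0.33 without Prmt5 KO 2. Il27ra, the IL-27 receptor chain, which binds Jak1, was at 494 and 433 CPM in Control, and at 157 and 106 CPM in Prmt5 KO, both far lower (log2 fold change -1.82 ± 0.35 SE, edgeR adjusted p = 0.127). Il23r, the IL-23 receptor chain, was at 5.14 and 8.22 CPM in Control and at 0 reads in both Prmt5 KO libraries, at least 42.7-fold lower with the group's floor set at 3 counts (edgeR adjusted p = 0.229). DESeq2 and edgeR's exact test each called 2 genes of this list, Il23r and Il27ra, and limma-voom called 0. Over all genes the 3 methods called 168, 204 and 13.

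Of 19 negative regulators, 18 were tested, with 1 higher and 2 lower at an unadjusted p under 0.05, against 4.62% and 3.95% of all genes, and a median log2 fold change of 0.24, which was -0.14 without Prmt5 KO 1. Pias2, a SUMO ligase of the family of STAT inhibitors, was at 53.8 and 25.6 CPM in Control, against 79.8 and 94.7 CPM in Prmt5 KO (log2 fold change 1.13 ± 0.42 SE, edgeR adjusted p = 0.468). Usp18, an interferon-induced inhibitor of receptor signalling, was at 49.6 and 61.3 against 29.6 and 24.8 CPM (-1.02 ± 0.39 SE, edgeR adjusted p = 0.483). The groups of both genes did not overlap, and no gene of the list was called by DESeq2, the exact test or limma-voom.

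Of 20 STAT-responsive genes, 19 were tested, with 3 higher and 3 lower at an unadjusted p under 0.05, against 4.62% and 3.95% of all genes, and a median log2 fold change of -0.07, which was 0.13 without Control 1 and -0.41 without Control 2. Cdkn1a, the cell cycle inhibitor p21 and also a target of p53, was at 1.06 and 0.939 CPM in Control, and at 26.8 and 30.1 CPM in Prmt5 KO (log2 fold change 4.80 ± 0.69 SE, edgeR adjusted p = 0.0561). Bcl2, the survival factor, was at 26.4 and 48.1 CPM in Control, against 173 and 130 CPM in Prmt5 KO (2.03 ± 0.40 SE, edgeR adjusted p = 0.132); in 1 library 65.3% of its reads were unique. Both genes were higher in each Prmt5 KO library than in each Control library. DESeq2 called 3 genes of the list, the exact test 2 and limma-voom 0, against 168, 204 and 13 over all genes.

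**Figure D5:**
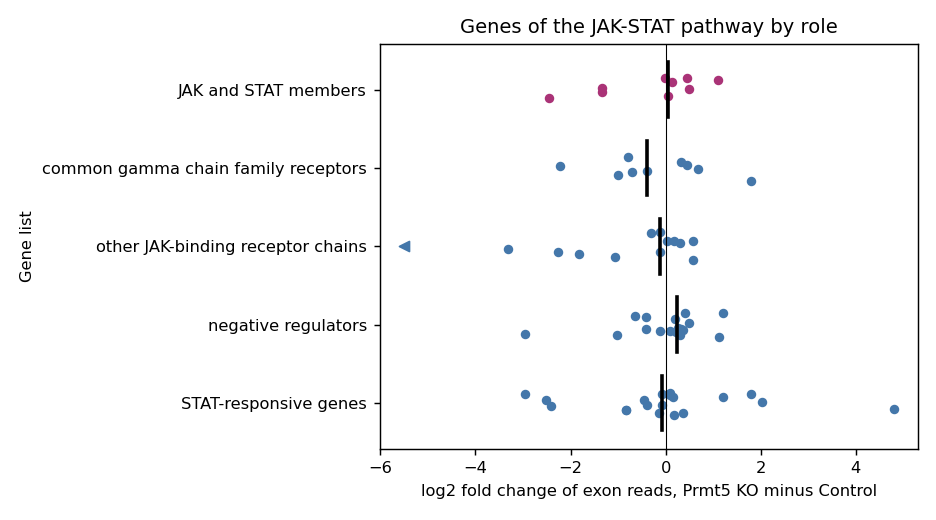
Log2 fold change of exon reads, Prmt5 KO minus Control, for the members and for each list of other pathway genes by role; each point is a tested gene and the vertical bar the median of its list. The triangle at the left edge is Il23r, with 0 reads in Prmt5 KO, whose fitted value lies beyond the axis; the medians lie between -0.39 and 0.24.

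The genes whose profile over the 4 libraries was most like that of a member were found by the Euclidean distance of centred log2 CPM among 9425 tested genes, as a description. For Jak3 these were Gm19585 (distance 0.306), Hcst (0.343) and F2r (0.349). Hcst, the adaptor DAP10, was at 121 and 134 CPM in Control, and at 21.01 and 19.5 CPM in Prmt5 KO, and F2r, a thrombin receptor, at 122 and 105 against 27.4 and 21.5 CPM. For Tyk2 they were Sema4a (0.239), Trmt44 (0.239) and Antxr2 (0.345). For Stat5b they were Lpin1 (0.0693), Inpp4b (0.0844) and Tmem161b (0.119), and Inpp4b was at 253 and 155 against 462 and 456 CPM. For Stat3 the nearest was BC023829 (0.0351), before Rasgrp1 (0.0640) and Hnrnph1 (0.0658). For Stat5a it was Ccr7 (0.0411), a chemokine receptor at 219 and 281 CPM in Control, against 330.1 and 381 CPM in Prmt5 KO, before Bhlhb9 (0.0575) and Knop1 (0.0650). Distances were smaller for Stat3, Stat5a and Stat5b than for Jak3 and Tyk2. The profiles were centred but not scaled, so a distance depends on the size of a gene's changes and does not rank the members.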

How the data were processed

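Per the labels, total RNA of the sorted cells was turned into cDNA and amplified with the SMART-seq v4 kit, and the 4 libraries carry 1 run name; sequencing was on an Ion Proton, per the series' design text. The authors deposited unnormalized read counts per gene for exons, introns and exon-exon junctions, as unique and as total reads. The submitters' processing notes name the build mm10 and edgeR; mapper and strand setting: not given in the sources used here.

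Total exon reads were fitted in edgeR 4.0.16 (R 4.3.3) with filterByExpr, TMM scaling and the quasi-likelihood test, with Benjamini-Hochberg adjustment over 10775 genes at a threshold of 0.05. Intron against exon reads (7400 genes) and exon-exon against other exon reads (6750 genes) were fitted with library as a block. The 15821 genes with an exon length of 0 in the table were left out of the intron tests. The test of intron reads alone was added after the data were seen. The fits of exon reads, of intron against exon reads and of exon-exon against other exon reads were tested on simulated data with known changes. The fit of intron reads alone was not. Alternatives used limma 3.58.1 and DESeq2 1.42.0. The text names all members, Prmt5, Il2rg, the 2 genes of each list with the smallest p (some items are not reported here) and the 3 nearest profiles of each member whose groups did not overlap. The members and lists were chosen with earlier results of these data known. With 2 libraries a group, an exact two-sided permutation test could not go below 0.333, so only fits across all genes were used. Sequences and gene models are from GENCODE M21 (GRCm38), whose ends and exon lengths matched the table for 8 of 9 members, Tyk2 being the other.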

Additional observations from a re-analysis of the deposited data

How the results depend on the processing

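The number of genes called on exon reads, 1 as fitted, was 215 without a filter, 11 at a mean of at least 5 CPM, 168 with DESeq2, 204 with edgeR's exact test, 13 with limma-voom, 14 on total gene reads, 20 at an adjusted p of 0.10, and 0 to 5 with 1 library left out (0 without either Control library, 5 without Prmt5 KO 1, 3 without Prmt5 KO 2). Jak3 was past 0.05 in 7 of 16 settings. The calls for intron against exon reads, 0 as fitted, were 0 to 1 with 1 library left out; those for exon-exon reads, 0 as fitted, were 0 to 183, the highest without Control 1. Intron reads alone, with 12 calls, gave 0 with TMM on the intron columns, 1 with the replicate block and 0 to 120 with 1 library left out. The cause was not tested.

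With the replicate number as a block, 362 genes were called on exon reads, and Jak3 (adjusted p = 3.29e-07), Tyk2 (0.0128) and Stat5b (0.0162) passed. The labels do not say that a number marks a shared animal or day, and same-numbered libraries correlated at 0.208 in their deviations from the group means over 10775 genes, with only 2 pairs, so the numbers were not taken as pairs.

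These member values changed sign. For exon reads, the Jak1 log2 fold change was 0.090 without scaling factors, 0.011 without a filter and 0.018 on exon-exon reads, and Stat6 was -0.022 on total gene reads. With 1 library left out Jak1 ran from -0.22 to 0.20, Jak2 from -0.50 to 0.56, Stat6 from -0.25 to 0.44 and Prmt5 from -0.19 to 0.28. For intron against exon reads, Stat3 was -0.13 with limma-voom and ran from -0.70 to 0.76 with 1 library left out, and Stat5b from -1.03 to 0.81. With intron and exon columns scaled apart, an alternative chosen after seeing the data, Jak1 was at -0.10, Stat3 at -0.96, Stat5a at -0.23 and Stat6 at -0.037. For exon-exon reads, Tyk2 was 0.037 with the replicate block and ran from -0.61 to 0.63 with 1 library left out, Jak1 from -0.15 to 0.14, Stat5a from -0.26 to 0.046 and Stat6 from -0.16 to 0.15. For intron reads alone with TMM on the intron columns, Jak1 was at -0.17, Jak3 at -0.71 and Stat3 at -0.37, and Stat3 ran from -0.023 to 1.02 with 1 library left out. Depth limits Stat4, with 30 exon reads or fewer in every library, and intron reads, of which Stat5a had as few as 6 in a library, Stat6 8 and Jak3 18.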
